A study of Rattus norvegicus with 6 samples.

Results

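The proteasome is the protease that degrades ubiquitin-tagged proteins, and its subunits, assembly factors, activators and inhibitor were followed here in liver RNA of rats given 1-amino-2,4-dibromoanthraquinone (ADBAQ), an anthraquinone dye intermediate. Members were the genes whose RefSeq symbol starts with Psma to Psmg followed by a number, plus Pomp. The arrays carried 82 probes naming 47 such genes. All 47 passed the filter of being well above background on the 3 arrays of at least 1 group, so the members are 47 of 11338 genes tested, and the probe used was well above background on all 6 arrays for each of them. Psmb11, Psmd11, Psmg1 and Psmg3 had no named probe and were not analysed here. A pair of the 47, Psmc3ip and Psme3ip1, are named after a subunit they bind and are not subunits themselves.

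The study measured liver RNA of 6 male Sprague-Dawley rats, bought at 5 weeks of age, on 1-colour Agilent arrays, 1 array per rat. In the ADBAQ group 3 rats received 1000 mg/kg/day, and in the vehicle group 3 rats received the carrier alone. The labels name the carrier both as purified water and as corn oil. They give the time as 28 days in the design text and as 9 weeks in the treatment protocol. Array scale differed between groups: processed signals had a 75th percentile of 432.7 to 461.5 in vehicle and 570.3 to 643.0 in ADBAQ, and between 62.1% and 65.3% of probes were well above background. No probe of a gene was saturated. Each slide and each scan day held 1 group only, so slide, scan day and treatment cannot be told apart in any difference below. Of the liver markers, albumin (Alb) lay at 9.95 to 10.06 in vehicle and at 9.57 to 9.74 in ADBAQ. These levels are on the log2 scale relative to the array's 75th percentile that is used throughout. The number of arrays limits the precision.

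The proteasome is built from a barrel-shaped core particle and a regulatory particle that caps it. The core has outer alpha rings and inner beta rings, and the beta subunits Psmb5, Psmb6 and Psmb7 carry the proteolytic sites. In cells exposed to interferon, and in many leukocytes, Psmb8, Psmb9 and Psmb10 take their places and form the immunoproteasome, which favours peptides for MHC class I. The regulatory particle has a base, with the ATPases Psmc1 to Psmc6 that unfold substrates, and a lid that removes ubiquitin. In mammals the transcription factor Nfe2l1 raises proteasome genes when proteolysis is limiting, through antioxidant response elements that Nfe2l2 can also bind.

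Most core and regulatory particle genes had slightly higher values in ADBAQ, and few passed the test singly. Of the 30 constitutive core and regulatory particle subunits (without Psma8, which is mainly a testis subunit), 29 had a log2 fold change above 0, against 45.8% of all tested genes. Their median was 0.22, against -0.04 for all tested genes. In 22 of the 30 the 3 ADBAQ values all lay above the 3 vehicle values, which held for 21.2% of all tested genes. In 1, Psmd1, they all lay below, which held for 25.1%. Only 2 of the 30, Psmc4 and Psmd14, were called higher (9.06% of all tested genes were), meaning an adjusted p under 0.05 in limma with Benjamini-Hochberg adjustment over 38695 probes. At an unadjusted p under 0.05 the count was 15 of 30 higher and none lower, against 17.2% and 21.1% of all tested genes. The immunoproteasome subunits had other values: Psmb8 lay below vehicle on every ADBAQ array, and the groups overlapped for Psmb9 and Psmb10.

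Over all 47 members 5 were called higher by limma (10.6%), a share near that of all genes, and none was called lower, where 11.3% of all genes were. In either direction 20.3% of all genes were called. Without adjustment, 19 members were higher and 3 lower at a p under 0.05, beside 17.2% and 21.1% of all genes. Another 13 members had an adjusted p between 0.05 and 0.1, and 11 of these were higher. The share of all genes in that band was not counted, so this count has nothing to be set against. No member changed by as much as 2-fold. The number called differed between settings. It was 20 higher and 1 lower with normexp background correction (12.3% and 23.3% of all genes), 15 and 0 with quantile normalization (10.2% and 9.83%), and 15 and 2 with each gene taken as the average of its probes (10.9% and 12.9%). It was 3 without vehicle replicate 2, 1 without ADBAQ replicate 1 and 1 without ADBAQ replicate 3, and in these fits the share of all genes called higher was lower too, at 5.55%, 3.55% and 4.15%. Scaled to the spike-in controls, all genes shifted to a median of 0.72 and the members to 0.95. This scaling moves all genes on an array by the same amount, so the gap of 0.23 in the main setting is kept by construction. Under it 46 members were called higher and none lower, beside 78.8% and 1.66% of all genes.

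**Figure D1:**
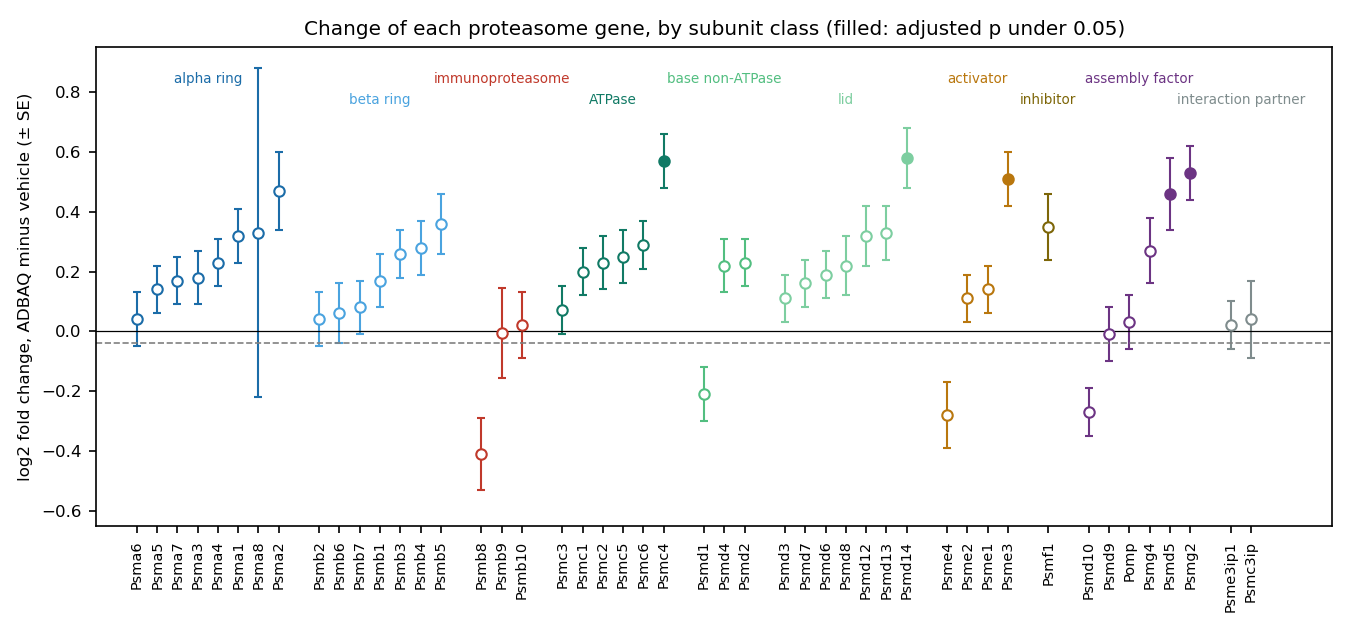
Log2 fold change (ADBAQ minus vehicle, vertical axis) of the 47 members grouped by subunit class, with the SE of eBayes as bars. Filled points are the 5 genes called higher, and the dashed line marks the median of all tested genes at -0.04. All alpha ring, constitutive beta ring, ATPase and lid genes lie above 0; Psmb8, Psmd1, Psme4 and Psmd10 lie below by 0.21 to 0.41, and Psmb9 and Psmd9 by at most 0.01.

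Relative to each gene's vehicle mean, the median of the 30 constitutive subunits stood at 0.25, 0.18 and 0.21 on ADBAQ arrays 1, 2 and 3. On the vehicle arrays it stood at 0.01, -0.03 and 0.03. The 3 treated rats were alike, and their medians did not overlap with those of the vehicle rats. In ADBAQ replicate 2, the lowest of the treated arrays, 25 of the 30 were above their vehicle mean, against 29 on each of the other ADBAQ arrays.

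**Figure D2:**
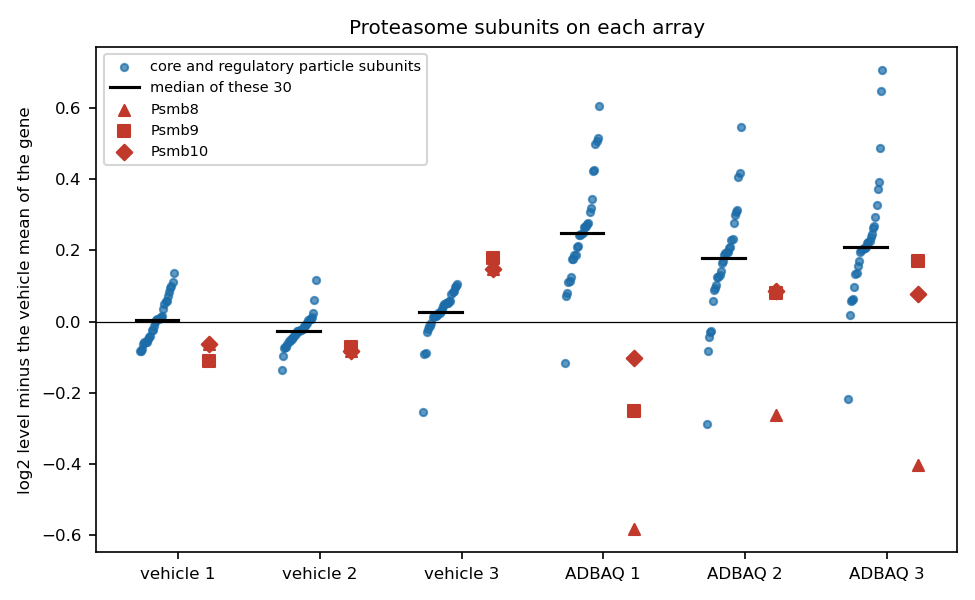
Log2 level of each gene minus its own vehicle mean (vertical axis) on each of the 6 arrays. Blue points are the 30 constitutive core and regulatory particle subunits, black bars their median, and red symbols the 3 immunoproteasome subunits; the blue medians are 0.18 to 0.25 on ADBAQ arrays and -0.03 to 0.03 on vehicle arrays.

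The sequence around the transcription start is given for 4 members, 3 whose ADBAQ values all lay above vehicle and Psmb8, whose values lay below. The windows run from 250 bases before to 50 after the start and come from RefSeq (build GRCr8), each on the gene's own strand. Psma3 lies at chr6:95219499-95219798 (plus strand), Psmb5 at chr15:32047330-32047629 (minus), Psmc4 at chr1:92485011-92485310 (minus) and Psmb8 at chr20:4656982-4657281 (minus). Capitals mark the antioxidant response element core TGACNNNGC and the CCAAT box, searched on both strands.
Psma3: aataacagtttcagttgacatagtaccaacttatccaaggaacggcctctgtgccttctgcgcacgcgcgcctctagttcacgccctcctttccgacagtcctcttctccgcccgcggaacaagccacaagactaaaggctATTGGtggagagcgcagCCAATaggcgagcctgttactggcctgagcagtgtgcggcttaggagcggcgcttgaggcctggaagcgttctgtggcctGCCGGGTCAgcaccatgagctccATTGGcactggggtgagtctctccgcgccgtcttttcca
Psmb5: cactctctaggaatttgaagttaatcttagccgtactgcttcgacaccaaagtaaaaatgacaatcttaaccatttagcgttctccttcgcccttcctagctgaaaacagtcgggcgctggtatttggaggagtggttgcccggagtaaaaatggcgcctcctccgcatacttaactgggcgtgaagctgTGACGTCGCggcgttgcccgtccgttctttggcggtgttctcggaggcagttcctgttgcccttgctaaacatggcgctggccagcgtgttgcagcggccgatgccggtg
Psmc4: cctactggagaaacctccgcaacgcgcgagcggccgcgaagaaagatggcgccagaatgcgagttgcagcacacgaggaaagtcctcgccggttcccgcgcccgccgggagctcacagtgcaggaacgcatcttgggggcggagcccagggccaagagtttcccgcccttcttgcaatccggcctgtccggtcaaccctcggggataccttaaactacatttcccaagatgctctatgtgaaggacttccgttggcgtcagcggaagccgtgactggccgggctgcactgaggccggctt
Psmb8: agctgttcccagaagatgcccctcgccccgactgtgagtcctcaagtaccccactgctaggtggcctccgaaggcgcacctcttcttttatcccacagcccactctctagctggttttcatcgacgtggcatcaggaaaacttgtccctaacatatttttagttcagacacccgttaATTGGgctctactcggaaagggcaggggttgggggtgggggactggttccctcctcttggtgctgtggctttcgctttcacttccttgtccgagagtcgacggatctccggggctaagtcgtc
Psma3, an alpha ring gene, held 1 response element core on the minus strand and 3 CCAAT boxes, none overlapping another. Psmb5 held 1 response element core, TGACGTCGC, which begins 60 bases before the start. Psmb8 held a CCAAT box, and Psmc4 neither motif.

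Promoter windows were found for 43 of the 47 members. The response element core was in 8 of these 43 (18.6%), against 12.1% of all 33469 promoters of the table, and the CCAAT box in 22 (51.2%) against 37.5%. Members were counted with a single window per gene, and the table over all its windows without that step, so the sets compared are unlike. Among 26 constitutive core and regulatory particle genes with a window, the 6 with the response element core (Psma3, Psmb2, Psmb5, Psmb6, Psmd1 and Psmd3) had log2 fold changes from -0.21 to 0.36 with a median of 0.08. The 20 without it had changes from 0.04 to 0.57 with a median of 0.23. None of the 4 called members with a window (Psmc4, Psme3, Psmg2 and Psmd5) held the response element core in it. A match describes letters only, and a window of this length leaves out more distant elements.

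In the alpha ring, which gates entry to the core, all 8 members had a log2 fold change above 0 and none was called (3 higher and none lower at an unadjusted p under 0.05), with a median of 0.21. Psma2 had the largest change. Its levels were 3.73, 3.71 and 3.34 in vehicle and 4.10, 4.00 and 4.08 in ADBAQ, without overlap. The groups differed by 0.47 ± 0.13 on the log2 scale (SE of eBayes, as for all changes here, with n = 3 in each group; limma adjusted p = 0.0546), just outside the threshold. For Psma1, Psma3, Psma4, Psma5 and Psma7 the groups did not overlap either, with changes from 0.14 to 0.32 and adjusted p from 0.051 to 0.285. Psma6 stood at 0.04. Psma8 was dim, between -4.03 and -2.34, its groups overlapped, and the other 3 of its 4 probes were not well above background on any array.

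In the beta ring all 7 constitutive members had a change above 0 and none was called (3 higher and none lower at an unadjusted p under 0.05), with a median of 0.17. Psmb5, which carries the chymotrypsin-like site, read 5.11, 5.06 and 5.13 in vehicle and 5.60, 5.40 and 5.37 in ADBAQ. All ADBAQ values were above all vehicle values, with a change of 0.36 ± 0.10 (limma adjusted p = 0.052). The other proteolytic subunits differed little: Psmb6 stood at 0.06 ± 0.10 and Psmb7 at 0.08 ± 0.09, and the groups overlapped for both. The non-catalytic Psmb3 and Psmb4 read 0.26 ± 0.08 and 0.28 ± 0.09 without overlap, while Psmb1 (0.17) and Psmb2 (0.04) overlapped.

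None of the 3 immunoproteasome subunits was called by limma, and 1 was lower at an unadjusted p under 0.05. Psmb8, the inducible counterpart of Psmb5, read 2.98, 2.96 and 3.19 in vehicle and 2.46, 2.78 and 2.64 in ADBAQ. Every ADBAQ value was below every vehicle value, and the log2 fold change was -0.41 ± 0.12 (limma adjusted p = 0.0621). It passed the threshold with normexp background correction (-0.35, limma adjusted p = 0.0475), and it was 0.34 when scaled to the spike-in controls, below the shift of 0.72 of all genes. Psmb9, the counterpart of Psmb6, read 2.87, 2.91 and 3.16 in vehicle and 2.73, 3.06 and 3.15 in ADBAQ. Psmb10, the counterpart of Psmb7, read 4.30, 4.28 and 4.51 in vehicle and 4.26, 4.45 and 4.44 in ADBAQ. Both overlapped between groups, with changes of -0.0043 ± 0.15 and 0.02 ± 0.11.

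The change of each constitutive proteolytic subunit was set against that of its inducible counterpart on the same arrays. For Psmb5 against Psmb8 the difference of changes was 0.77. On the ADBAQ arrays, relative to the vehicle mean, it was 1.08, 0.55 and 0.67, and on the vehicle arrays 0.07, 0.05 and -0.12. The groups did not overlap, and the exact two-sided permutation p was 0.1, the smallest that 3 rats against 3 allow (0.3 after adjustment over the 3 comparisons). For Psmb6 against Psmb9 the difference was 0.06 and for Psmb7 against Psmb10 it was 0.05, with overlapping groups in both (exact permutation p = 0.8 and 0.9).

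**Figure D3:**
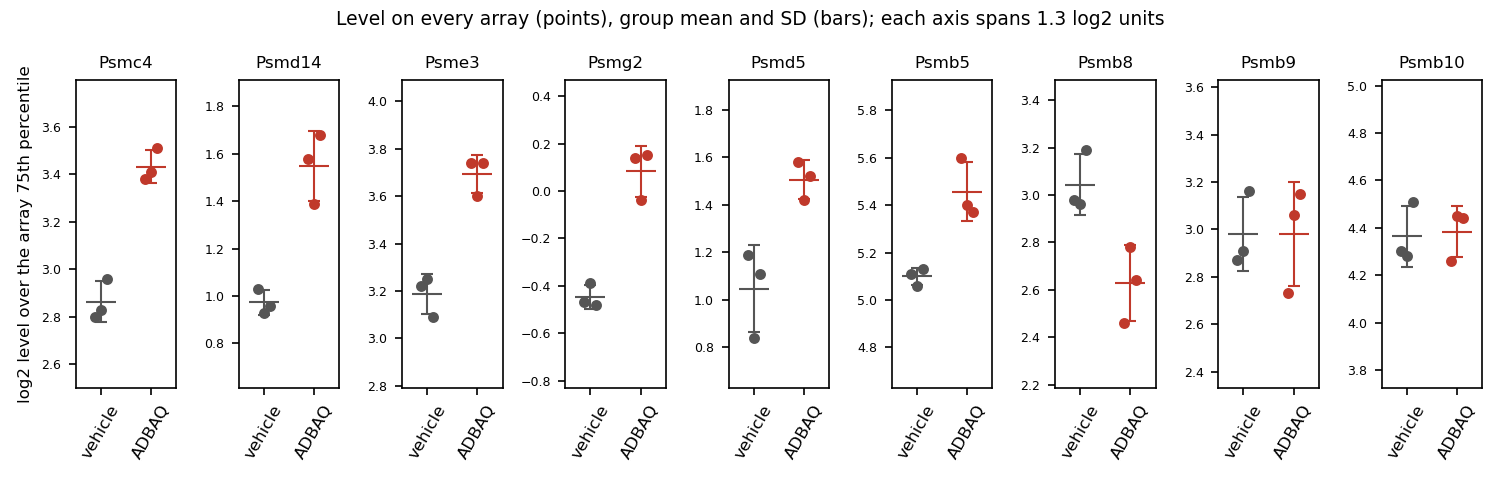
Level of 9 members on each array (points; vertical axis, log2 over the array's 75th percentile, each panel spanning 1.3 log2 units around its own centre), with group mean and SD, n = 3 rats per group. The 5 called genes and Psmb5 are higher without overlap, Psmb8 is lower without overlap, and Psmb9 and Psmb10 overlap.

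Immunoproteasome genes are expressed in leukocytes as well as in hepatocytes, and in bulk tissue fewer cells of a type cannot be told apart from less RNA per cell. Of all tested genes 9.06% were called higher and 11.3% lower, the shares to set beside each marker list here. Of 12 measured leukocyte markers none rose by limma (1 at an unadjusted p under 0.05) and 2 fell. These were the cytotoxic cell genes Cd8a (-0.85) and Gzma (-1.31), while Nkg7, also of cytotoxic cells, stood at -0.03. Cd8a was dim, at -3.65 to -2.28, and was called in 1 of the 6 fits that left out an array. The summed level of the 12 markers, in multiples of the array's 75th percentile, was 12.2 to 15.4 in vehicle and 14.9 to 15.8 in ADBAQ. Ptprc, the pan-leukocyte marker, stood at 0.24 ± 0.11 (limma adjusted p = 0.175). All 5 of its probes lay above 0 and 1 was called higher. Any probe was called higher for 11.2% of all genes. Of 9 macrophage and neutrophil markers 1 rose and none fell, with summed levels of 76 to 89.4 and 93.2 to 114, and Cd68 stood at 0.14. Of 10 hepatocyte markers 7 fell and none rose, with sums of 6386 to 6927 and 4761 to 5155. Alb was among the 7, at -0.35 ± 0.09 (limma adjusted p = 0.0458). It was called in 0 of the 6 fits that left out an array (limma adjusted p between 0.0799 and 0.132). With quantile normalization 3 of the 10 were called lower and 0 higher, beside 9.83% and 10.2% of all genes. Alb then stood at 0.07 (limma adjusted p = 0.574). With the spike-in scaling 1 of the 10 was called lower and 4 higher, beside 1.66% and 78.8% of all genes. The cholangiocyte sum was 1.76 to 2.04 in vehicle and 2.78 to 4.28 in ADBAQ, with 3 of 6 markers higher and 1 lower, and Krt19 at 0.62. These 6 were mostly dim, with a median vehicle level of -2.27. With normexp background correction 2 of them were called higher and 1 lower, beside 12.3% and 23.3% of all genes. None of 7 stellate cell and 5 endothelial markers was called by limma (none higher and 2 lower in each list at an unadjusted p under 0.05), and the medians were -0.31 and -0.28. Pecam1 stood at -0.33 and Col1a1 at 0.18, the 1 stellate marker of 7 above 0. The summed levels of the 2 lists were 24.6 to 34.4 and 38 to 41.9 in vehicle, and 22.5 to 25.1 and 31.1 to 35.6 in ADBAQ. The part of these cell types in the proteasome values was not tested.

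Genes of the MHC class I pathway, which takes up the peptides that the immunoproteasome makes, lay mostly below 0. Of 12 measured, 11 had a change below 0, as did 54.2% of all tested genes, with a median of -0.24. For RT1-CE5, among those below 0 at -0.21, only 2 of its 4 probes had this direction, and 2 were called higher. By limma 1 was called higher (8.33%, against 9.06% of all genes) and 3 lower (25%, against 11.3%). The peptide loading chaperone Calr changed by -0.77 ± 0.15 (limma adjusted p = 0.0193), RT1-S3, a class I gene, by -0.55 ± 0.13 and the loading partner Pdia3 by -0.49 ± 0.12. Calr and Pdia3 also serve protein folding in the endoplasmic reticulum at large. Tapbp, which bridges the peptide transporter and class I, rose by 0.68 ± 0.17. The peptide transporter subunit Tap1 stood at -0.17 and B2m at -0.31 ± 0.11 (limma adjusted p = 0.091). Of the 5 probes of B2m, all below 0, 2 were called lower. B2m stood at -0.43 with normexp background correction (limma adjusted p = 0.011) and at -0.01 with quantile normalization (limma adjusted p = 0.971). The interferon pathway factor Irf1 (0.56 ± 0.15, limma adjusted p = 0.0517) was not called. With the spike-in scaling, where the median of all genes was 0.72, Calr stood at -0.01 (limma adjusted p = 0.943). RT1-S3 and Pdia3 stood at 0.21 and 0.27 under it, so none of the 3 was called lower. In the 6 fits that left out an array, Calr stayed called in 3, Tapbp in 1, and RT1-S3 and Pdia3 in 0.

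Among the ATPases of the base, 1 of 6 was called and all 6 had a change above 0, with a median of 0.24. Psmc4 read 2.80, 2.83 and 2.96 in vehicle and 3.38, 3.41 and 3.51 in ADBAQ. The groups lay far apart relative to their spread, with a log2 fold change of 0.57 ± 0.09, or 1.49-fold (limma adjusted p = 0.0124). All 3 of its probes were called (0.55, 0.57 and 0.61), and it stayed called in all 6 fits that left out 1 array each (limma adjusted p between 0.0277 and 0.045). It was the only member for which that held. Psmc1, Psmc2, Psmc5 and Psmc6 had changes from 0.20 to 0.29 without overlap and without a call, and Psmc3 stood at 0.07.

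The 3 other base subunits, scaffolds and docking sites for ubiquitin and its carriers, had no call (2 higher and none lower at an unadjusted p under 0.05). Psmd2 read 5.75, 5.70 and 5.80 in vehicle and 6.0, 5.98 and 5.97 in ADBAQ, a change of 0.23 ± 0.08 without overlap (limma adjusted p = 0.0933). Psmd4, a ubiquitin receptor, stood at 0.22 ± 0.09. Psmd1, the large scaffold subunit, was the exception among core and regulatory particle genes, at -0.21 ± 0.09 (limma adjusted p = 0.17). Its ADBAQ values were all below its vehicle values. With the spike-in scaling it stood at 0.55, below the median of 0.72 of all genes.

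Of 7 lid subunits measured 1 was called, and all 7 had a change above 0, with a median of 0.22. Psmd14, the metalloprotease that cuts ubiquitin chains from substrates, read 1.03, 0.93 and 0.96 in vehicle and 1.58, 1.39 and 1.68 in ADBAQ. It rose by 0.58 ± 0.10, or 1.49-fold (limma adjusted p = 0.0171), and stayed called in 3 of the 6 fits without an array (highest adjusted p = 0.0608). Psmd6, Psmd7, Psmd8, Psmd12 and Psmd13 had changes from 0.16 to 0.33 without overlap, and Psmd3 stood at 0.11 with overlap.

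The activators, which cap the core without ubiquitin recognition, differed among themselves. Psme3, the nuclear form, read 3.22, 3.25 and 3.09 in vehicle and 3.74, 3.60 and 3.74 in ADBAQ. It rose by 0.51 ± 0.09, or 1.42-fold (limma adjusted p = 0.0183), and stayed called in 4 of the 6 fits without an array (highest adjusted p = 0.0649). Its second, dimmer probe stood at 0.30 ± 0.11 and was not called (limma adjusted p = 0.107). Psme1 and Psme2, the interferon-inducible pair, stood at 0.14 ± 0.08 and 0.11 ± 0.08, both without overlap and without a call. Psme4, a large activator linked to histone turnover, stood at -0.28 ± 0.11 (limma adjusted p = 0.112), below vehicle on every ADBAQ array and on all 3 of its probes, and at 0.47 with the spike-in scaling. The inhibitor Psmf1 read 3.69, 3.89 and 3.96 in vehicle and 4.22, 4.30 and 4.08 in ADBAQ, a change of 0.35 ± 0.11 (limma adjusted p = 0.0787).

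Of 6 assembly factors measured 2 were called. Psmg2, a chaperone of alpha ring assembly, read -0.47, -0.39 and -0.48 in vehicle and 0.14, -0.04 and 0.15 in ADBAQ. It rose by 0.53 ± 0.09, or 1.45-fold (limma adjusted p = 0.0161), and stayed called in 4 of the 6 fits without an array (highest adjusted p = 0.0589). Psmd5, a chaperone of the base, read 1.19, 0.84 and 1.11 in vehicle and 1.58, 1.42 and 1.52 in ADBAQ, a rise of 0.46 ± 0.12 (limma adjusted p = 0.0461) that was lost in each of the 6 fits that left out 1 array (limma adjusted p between 0.0538 and 0.131). Psmg4, the partner of an alpha ring chaperone, stood at 0.27 with overlap. Pomp, which guides beta ring assembly and was the brightest member, stood at 0.03 ± 0.09, and Psmd9, a base chaperone, at -0.01. Psmd10, a further base chaperone also known as gankyrin, stood at -0.27 ± 0.08 (limma adjusted p = 0.0703), without overlap and at 0.49 with the spike-in scaling. The interaction partners stood at 0.04 (Psmc3ip) and 0.02 (Psme3ip1).

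Several genes gave a larger change on a dimmer probe. In 24 members more than 1 probe was tested, and in all 24 the probes had the same direction. In 18 of the 24 the brightest probe, which represents the gene here, had a smaller absolute change than the mean of its other probes (75%), against 54.3% of 5599 such genes overall. Psma4 stood at 0.23 on the brighter probe and at 0.55 ± 0.08 on the dimmer one, which was called (limma adjusted p = 0.0111). Likewise the second probe was called for Psma3 (0.43), Psmd6 (0.42) and Psmb4 (0.33). Counting a gene by any of its probes, a rule added after seeing the data, gave 9 members higher, against 11.2% of all genes, and none lower, against 13.3%. RefSeq lists pseudogenes for many of these subunits, and whether a probe also matches one was not tested.

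**Figure D4:**
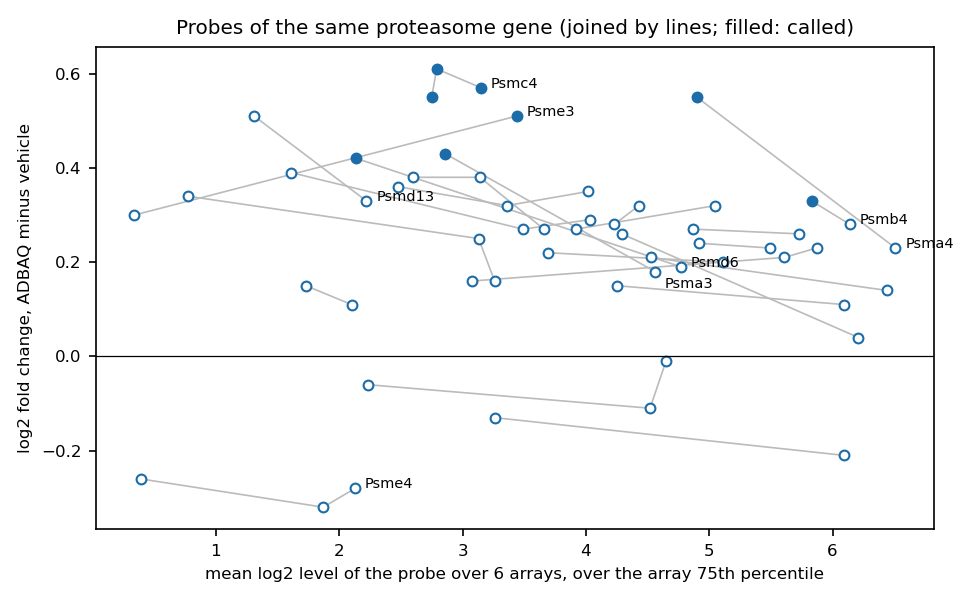
Log2 fold change (vertical axis) of each tested probe against its mean log2 level over 6 arrays (horizontal axis) for the 24 members with more than 1 probe; lines join probes of a gene and filled points are called. Psma4, Psma3 and Psmd6 are higher and called on the dimmer probe only, while all 3 probes of Psmc4 are called.

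The surrounding ubiquitin system was followed in 80 measured genes of 6 lists, of which 14 were called higher (17.5%, against 9.06% of all genes) and 11 lower (13.8%, against 11.3%), with 40 changes above 0 and 40 below. Of 14 receptors, shuttles and deubiquitinases 6 rose (42.9%) and 1 fell (7.14%), with a median of 0.27. Zfand2a, a zinc finger protein that binds the proteasome under arsenite stress, read 2.69, 3.27 and 2.87 in vehicle and 5.23, 4.85 and 4.88 in ADBAQ, and rose by 2.04 ± 0.18, or 4.12-fold (limma adjusted p = 0.00331). Sqstm1, the autophagy receptor p62 and a known Nfe2l2 target, rose by 1.15 ± 0.09 (limma adjusted p = 0.00274). The proteasome-bound deubiquitinase Usp14 rose by 0.57 ± 0.11, the ubiquitin receptor Adrm1 by 0.45 ± 0.12 and Txnl1, a proteasome-bound thioredoxin, by 0.41 ± 0.08. Sem1, a small lid subunit without the Psm prefix, changed by -0.30 ± 0.08 (limma adjusted p = 0.0464), and by 0.45 with the spike-in scaling. With quantile normalization Sem1 was not called (-0.22, limma adjusted p = 0.104). In the 6 fits that left out an array, Zfand2a and Sqstm1 stayed called in all 6, Usp14 in 2, Adrm1 in 1, and Txnl1 and Sem1 in 0. Uchl5 and Paaf1 had no tested named probe.

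Of all tested genes 9.06% were called higher and 11.3% lower, the shares to set beside each list here. Of 6 ubiquitin and E1 genes 1 was called (16.7%), the main activating enzyme Uba1, at -0.36 ± 0.10 (limma adjusted p = 0.0491). Of 23 E2 conjugating enzymes 2 rose (8.7%) and 3 fell (13%), both near the shares of all genes. Ube2k (0.48) and Cdc34 (0.40) rose, and Ube2e3 (-0.52), Ube2g2 (-0.43) and Ube2r2 (-0.32) fell. Scaled to the spike-in controls these 4 falls were at 0.23 to 0.44. Vcp, the segregase that extracts ubiquitinated proteins, stood at -0.09 ± 0.08. Of 12 measured genes of the Vcp list 2 rose (16.7%), Nsfl1c (0.53) and Nploc4 (0.46), and 3 fell (25%). The 3 were Sel1l, of the endoplasmic reticulum degradation complex (-1.08 ± 0.11), the ligase Stub1 (-0.55) and Derl1 (-0.29). Stub1 and Derl1 stood at 0.21 and 0.47 with the spike-in scaling, below the median of 0.72 of all genes. Of the 2 probes of Derl1 1 had this direction, and of the 4 of Ube2k 3 did. In the 6 fits that left out an array, Nsfl1c, Sel1l and Stub1 stayed called in all 6, and Uba1, Ube2r2 and Derl1 in 0. With quantile normalization Uba1, Ube2r2 and Derl1 were not called either (limma adjusted p = 0.0947, 0.118 and 0.0831).

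Of 13 regulators of proteasome transcription 3 rose (23.1%, against 9.06% of all genes) and none fell (against 11.3%), with a median of 0.32. Nfe2l2 read 3.87, 4.11 and 4.09 in vehicle and 5.07, 4.76 and 4.93 in ADBAQ, a rise of 0.90 ± 0.12 (limma adjusted p = 0.00866). Its small Maf partners Maff and Mafk rose by 2.61 ± 0.27 and 0.91 ± 0.11, by 0.94 and 0.54 with normexp background correction, and Mafg stood at 0.02. Maff was dim in vehicle, at -4.79 to -4.00, and well above background on 5 of the 6 arrays, not on vehicle replicate 3. Nfe2l1 read 1.00, 0.96 and 0.79 in vehicle and 1.15, 1.15 and 1.41 in ADBAQ, without overlap. Its change of 0.32 ± 0.12 was not called (limma adjusted p = 0.105).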

How the data were processed

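Liver RNA of 3 vehicle and 3 ADBAQ rats was measured, 1 array per rat. Scanning used Agilent Feature Extraction 10.7.1.1 per the file headers (10.7 per the submitters' processing notes), which removed background from the deposited processed intensity. Flags and spot types, of the unit other, were deposited too. The authors' deposited series table holds a ratio, each processed signal over its array's 75th percentile, found by setting it against the scanner values. Levels given here are the log2 of that quotient, taken from the scanner values, over 61657 probes per array; 1319 control spots and 0 to 2 outlier spots per array were left out. RefSeq accessions named 27447 probes of 15278 genes. A probe was kept if it was well above background on every array of either group (38695 probes), and the brightest kept probe stood for its gene.

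Both groups were fitted with limma 3.58.1 (R 4.3.3; lmFit, then eBayes), with Benjamini-Hochberg adjustment over all kept probes and a threshold of 0.05. The procedure was tested on simulated data with independent noise, changes larger than that of any member, and no slide or scan day. That test does not cover changes as small as those of the members, or slides that held 1 group only. Members and gene lists were chosen with earlier results of these data known. All members are named. Values on every array are given for the immunoproteasome and, per class, for up to 3 called members, or for the member with the largest change where none was called. Up to 4 called genes per pathway list are named, and some fixed by name; single values of some genes that this rule names are not reported here. Txnl1, Ube2r2, Derl1, Mafg, RT1-CE5, Nkg7, Cd8a, Gzma, the array values of pathway genes and the second probes were chosen after their values were seen. Alternatives were normexp background correction (offset 50, on the median spot signal), quantile and median scaling, spike-in scaling, other filters, the series table, trend and robust, array weights, the replicate block, averaging the probes of a gene, and leaving out 1 array at a time. Slide could not be a block, because each held 1 group.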

Additional observations from a re-analysis of the deposited data

How the results depend on the processing

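The count of called members depended on the setting, while the direction of the core, ATPase and lid medians did not in any setting run. Against 5 members higher and 0 lower, the counts were 20 and 1 with normexp background correction, 15 and 0 with quantile normalization, 12 and 1 with no filter on dim probes (7.48% and 15.6% of all genes), 9 and 0 with probes well above background on all 6 arrays (9.42% and 12.6%), 16 and 2 with trend and robust (11.3% and 13.4%), 15 and 2 with the mean of a gene's kept probes (adjusted over genes, not probes), and 46 and 0 with spike-in scaling. By any kept probe, a rule added after seeing the data, the count was 9 higher. The replicate block gave 1 and 0 (3.78% and 4.88% of all genes); same-numbered arrays did not deviate together (correlations of -0.03, -0.02 and 0.00), so the number is no pairing. Leaving out an array gave 1 to 4 members higher, beside 3.55% to 6.3% of all genes. Of the 80 pathway genes, 14 higher and 11 lower (9.06% and 11.3% of all genes) became 73 and 1 with spike-in scaling (78.8% and 1.66%). With the replicate block they became 6 and 3 (3.78% and 4.88%). Without an array they were 6 to 12 and 2 to 5 (3.55% to 6.3% and 4.59% to 7.5%). With quantile normalization 4 were lower (9.83% of all genes).

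Class medians with spike-in scaling were 0.96 (alpha ring), 0.93 (beta ring), 0.75 (immunoproteasome), 0.99 (ATPase), 0.98 (other base), 0.97 (lid), 0.88 (activator), 1.1 (inhibitor), 0.91 (assembly factor) and 0.79 (interaction partner), beside 0.72 for all genes. With quantile normalization they were 0.29 (alpha ring), 0.23 (beta ring), 0.33 (ATPase), 0.29 (other base), 0.28 (lid), 0.23 (activator) and 0.25 (assembly factor). With normexp they were 0.26 (alpha ring), 0.22 (beta ring), 0.26 (ATPase), 0.17 (other base) and 0.24 (assembly factor). With the mean of a gene's probes the alpha ring stood at 0.30 and the lid at 0.29. Without an array the ranges were 0.15 to 0.23 (alpha ring), 0.12 to 0.22 (beta ring), 0.20 to 0.29 (ATPase) and 0.18 to 0.26 (lid).

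Sign changes touched only members that were not called in the main setting. With spike-in scaling Psmb8 stood at 0.34, Psmb9 at 0.75, Psmd1 at 0.55, Psmd9 at 0.75, Psmd10 at 0.49 and Psme4 at 0.47. With normexp Psma8 stood at -0.01, Psmd9 at 0.15 and Psme3ip1 at -0.11, with quantile normalization Psmb9 at 0.04 and Psmd9 at 0.06, and Psmb9 at 0.001 with median centring and 0.01 with array weights. Without an array the ranges that crossed 0 were -0.01 to 0.07 (Pomp), -0.01 to 0.10 (Psma6), -0.02 to 0.10 (Psmb10), -0.0014 to 0.07 (Psmb2), -0.01 to 0.13 (Psmb6), -0.09 to 0.12 (Psmb9), -0.07 to 0.13 (Psmc3ip), -0.06 to 0.03 (Psmd9) and -0.01 to 0.05 (Psme3ip1). The sign changes with spike-in scaling follow from that scaling moving the change of every gene up by the same amount. The causes of the other differences were not tested.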
